A study of Mus musculus with 8 samples.

Results

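The 10 genes described here handle bile acids in the gut: the nuclear receptors Nr1h4 (farnesoid X receptor, FXR), Nr0b2 (small heterodimer partner) and Nr5a2 (liver receptor homolog, LRH-1), the enterokine Fgf15, the synthesis enzyme Cyp27a1, the ileal carrier Fabp6, and the transporters Slc10a2, Slc51a, Slc51b and Abcc2. They were chosen by gene symbol, and the list was drawn up with results of these same arrays known, so the members' values, and the counts of members past a threshold, are a description only. They are read by 15 of the 25697 probes on the array. The scanner software tests each probe against negative control beads, and a detection p-value smaller than 0.01 was counted as above background. To be tested, a gene needed this on both replicates of some group, and 7 of the 10 had it. Those 7 were among 8607 genes tested. A gene that passed only through the group in which it is bright had to differ from the other groups, so the 7 do not stand for all 10.

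The study set mouse intestine cells with Nanog overexpression against intestine cells without it, and colon cells with Nanog overexpression against colon cells without it, in connection with hyperplasia of both organs. Each of the 4 groups holds 2 biological replicates, 8 arrays in all. Strain, age, the promoter or agent that drove Nanog, and which segment of the intestine was taken are not given in the sources used here. For each array, 300 ng of total RNA was amplified and hybridised to Illumina bead arrays, which report 1 fluorescence intensity per probe. Values below are background-corrected, quantile-normalized log2 intensities unless a sentence says "deposited intensity", and log2 differences carry the standard error (SE) of the fit over all 8 arrays. With 2 arrays a group, precision is limited by their number. The term "called" means a Benjamini-Hochberg adjusted p under 0.05 in limma over the 8607 genes.

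The arrays had between 10652 and 11993 probes above background. Replicates correlated at r = 0.915 in intestine with Nanog, 0.902 in intestine without, 0.965 in colon with and 0.967 in colon without, across genes. The Nanog probe itself was not above background on any of the 8 arrays, so the arrays do not check the Nanog labels. The tissue labels were borne out by markers: the mean of 4 tested colonocyte genes lay between 9.57 and 10.70 on the colon arrays, against 5.67 to 6.07 on the intestine arrays. Among these, Car4 was bright on some intestine arrays, at 10.30 and 7.04 with Nanog and 11.17 and 6.68 without Nanog. Its lowest colon value was 11.66, on replicate 2 with Nanog. Pancreatic acinar genes (12 of 13 listed were tested) averaged 5.33 and 14.30 in intestine with Nanog, against 5.15 and 10.28 in intestine without Nanog, and 7.78 and 13.71 in colon with Nanog, against 5.23 and 7.35 in colon without Nanog. Replicate 2 of intestine with Nanog had the lowest median deposited intensity, 84.6, against 96.2 to 107.7 on the other 7 arrays. It was also the only array on which any of 9 hepatocyte genes was above background: Ahsg, Fga, Fgg, Apoh and Hpx were, and Alb, Fgb, Tdo2 and Tat were not. The part of pancreatic or liver tissue in the members' values was not tested.

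Bile acids are made from cholesterol in the liver, conjugated, released into the gut and recovered mainly in the distal small intestine. There the sodium-dependent transporter encoded by Slc10a2 takes them up, Fabp6 binds them in the cytosol, and the Slc51a and Slc51b proteins together form the exporter at the basal membrane. Bile acids in the enterocyte activate FXR, which induces Fabp6, Slc51a, Slc51b, Nr0b2 and Fgf15, and the Fgf15 hormone lowers bile acid synthesis in the liver. LRH-1 is a regulator of bile acid genes that is also expressed in intestinal crypts and exocrine pancreas.

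FXR binds with its partner RXR to an inverted repeat (IR-1), the half-sites AGGTCA and TGACCT separated by 1 base. This repeat was searched on both strands in the RefSeq promoters of build GRCm38.p6 (250 bases before to 50 after the start of each gene), which held 9 of the 10 members, Nr5a2 with 2 promoters. The search window of 300 bases is given with each name. Matches with at most 3 mismatches were found in Fabp6, Slc51a and Slc51b, whose promoters are therefore shown. Capitals mark the matches, and sequences run 5′ to 3′ on the gene's strand.
Fabp6, chr11:43601513-43601812, minus strand: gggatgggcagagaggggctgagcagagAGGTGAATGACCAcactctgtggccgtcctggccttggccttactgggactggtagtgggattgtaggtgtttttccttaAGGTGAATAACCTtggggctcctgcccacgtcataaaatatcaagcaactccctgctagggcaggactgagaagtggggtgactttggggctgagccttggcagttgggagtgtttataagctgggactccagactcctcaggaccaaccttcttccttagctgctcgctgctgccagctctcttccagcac
Slc51a, chr16:32487830-32488129, minus strand: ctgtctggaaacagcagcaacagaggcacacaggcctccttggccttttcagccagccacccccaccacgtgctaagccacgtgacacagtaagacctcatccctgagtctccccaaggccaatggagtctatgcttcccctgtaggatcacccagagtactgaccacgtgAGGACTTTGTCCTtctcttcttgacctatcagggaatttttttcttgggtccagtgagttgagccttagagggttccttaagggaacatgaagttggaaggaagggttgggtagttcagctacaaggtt
Slc51b, chr9:65422724-65423023, minus strand: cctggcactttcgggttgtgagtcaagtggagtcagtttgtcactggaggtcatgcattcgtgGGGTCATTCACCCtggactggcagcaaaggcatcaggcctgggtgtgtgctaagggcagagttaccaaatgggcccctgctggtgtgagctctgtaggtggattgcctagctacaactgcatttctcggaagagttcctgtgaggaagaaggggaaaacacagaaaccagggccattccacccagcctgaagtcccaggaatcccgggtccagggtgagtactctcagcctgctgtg
Fabp6 held 2 matches with 2 mismatches each, starting at -222 and -142 from the gene start, and 1.14% of all 32851 promoters held a match that close. The single matches of Slc51a at -79 and of Slc51b at -187 had 3 mismatches, a level reached by 11.4% of promoters. The Slc51a match overlaps a match to the HNF4A motif CAAAGTCCA with 1 mismatch, which 8.47% of promoters held, as did 1 Nr5a2 promoter. No member's promoter searched, Fgf15 not being among them, held the LRH-1 motif TCAAGGTCA with at most 1 mismatch, against 7.46% of all promoters. The HNF1 motif, GTTAAT and ATTAAC separated by 1 base, matched Slc10a2 with 1 mismatch, a level reached by 0.207% of promoters. Nr1h4 and Abcc2 held matches with 2 mismatches (1.36%), and 1 Nr5a2 promoter held a match with 3 (8.33%). These matches describe letters in this window and not binding.

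**Figure D1:**
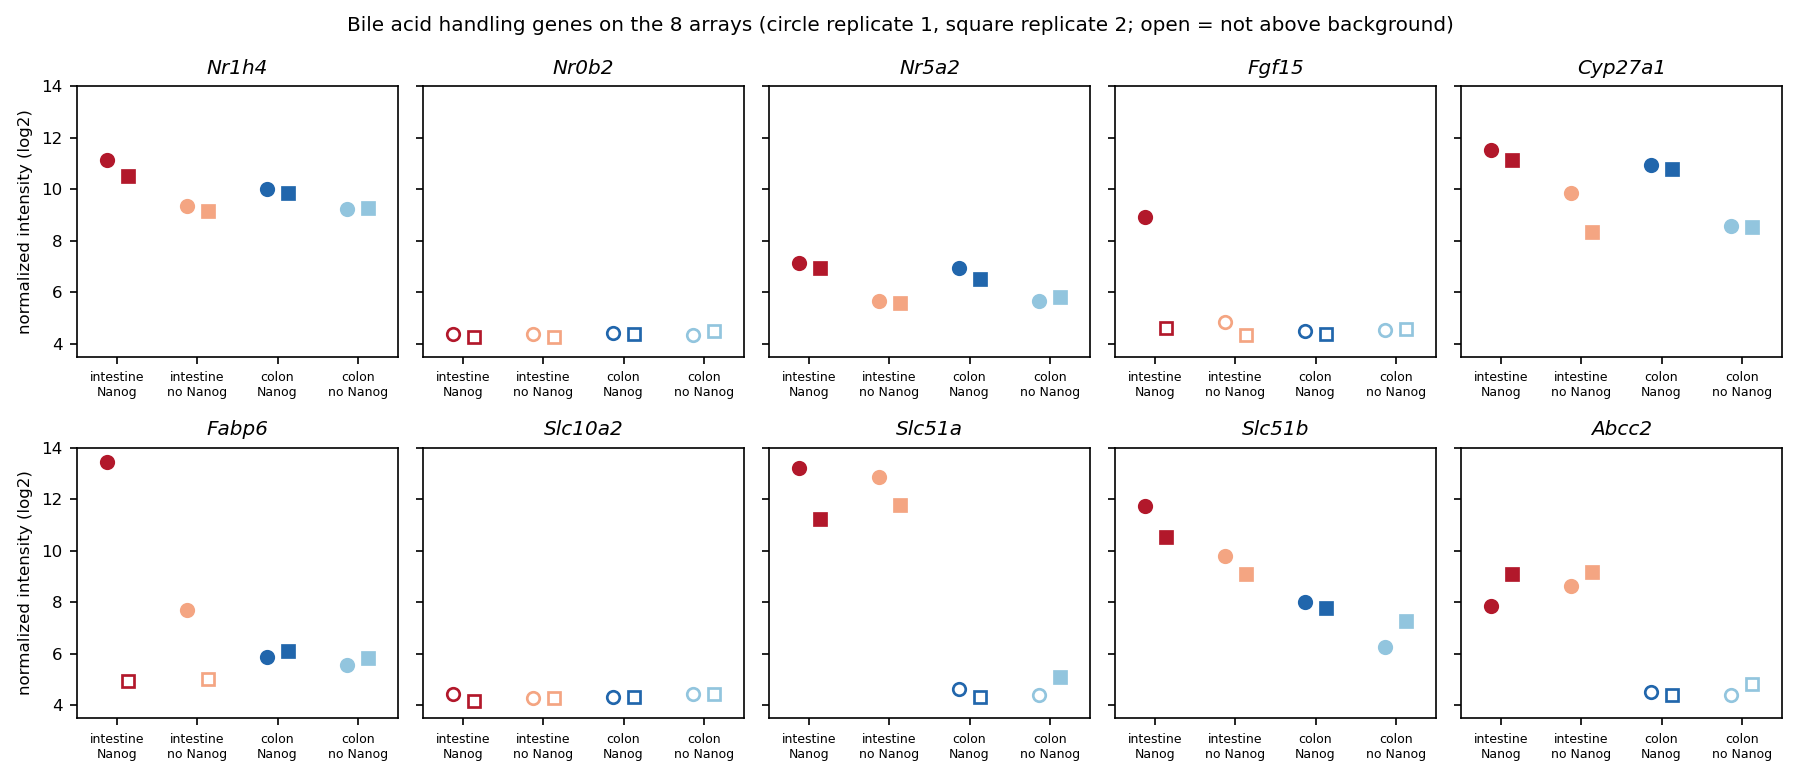
Normalized log2 intensity (y axis) of the brightest probe of each of the 10 genes in the 4 groups (x axis), with circles for replicate 1, squares for replicate 2 and open symbols for arrays on which the probe was not above background. Nr1h4, Nr5a2, Cyp27a1 and Slc51b sit higher with Nanog in both tissues, Fabp6 and Fgf15 stand out on replicate 1 of intestine with Nanog, and Slc51a and Abcc2 are bright on intestine arrays only.

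With Nanog, 4 of the 7 tested genes were higher on both arrays than on both arrays without Nanog in each tissue: the receptors Nr1h4 and Nr5a2, the enzyme Cyp27a1 and the exporter subunit Slc51b. Of all genes tested, 17% showed such a lack of overlap upward in intestine, 26.3% in colon and 7.95% in both. Averaged over the tissues, Cyp27a1, Nr5a2 and Nr1h4 were called higher and no member was called lower, where 1.2% of all genes were called, 0.72% as higher. In intestine alone 0 members were called, where 0.163% of all genes were, and in colon alone 0, where 0.221% were. An unadjusted p under 0.05 was found for 4 members in intestine and 3 in colon, beside 748 and 1074 of all 8607 genes. The median log2 difference of the 7 tested members was 1.56 in intestine, 0.67 in colon and 1.20 on average, beside -0.01 in each for all genes. Because these arrays were in view when the members were listed, nothing is read from these counts.

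Leaving 1 array out in turn gave average log2 differences of 0.97 to 1.26 for Nr1h4, 1.09 to 1.31 for Nr5a2 and 1.87 to 2.64 for Cyp27a1, while the calls depended on the arrays used. Leaving out any 1 of the 4 Nanog arrays or either array of colon without Nanog gave 0 called members, in fits that called 6 to 48 genes in all, against 103 with all 8 arrays. Leaving out either array of intestine without Nanog gave Cyp27a1 and Nr5a2, median scaling in place of quantile normalization gave 0, and the authors' normalized values gave Nr5a2 alone.

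Nr1h4, the bile acid sensor, had 11.11 and 10.52 in intestine with Nanog, against 9.34 and 9.17 in intestine without Nanog. In colon it had 10.002 and 9.84 with Nanog, against 9.24 and 9.26 without Nanog. The groups did not overlap in either tissue, and the order was intestine with Nanog, colon with Nanog, then the groups without Nanog, whose 4 arrays lay between 9.17 and 9.34. The log2 difference was 1.56 ± 0.26 in intestine, 0.67 ± 0.26 in colon and 1.11 ± 0.18 on average (SE, n = 2 arrays a group). Replicate 2 of intestine with Nanog stands above the arrays without Nanog by much more after normalization than before it: its deposited intensity was 928, against 922 and 719 without Nanog.

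Nr0b2, the repressor that FXR induces, was not above background on any of the 8 arrays. Its normalized values ran from 4.28 to 4.50, so no level or difference can be read for it.

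Nr5a2 had 7.13 and 6.96 in intestine with Nanog, against 5.66 and 5.59 in intestine without Nanog. In colon it had 6.94 and 6.50 with Nanog, against 5.65 and 5.81 without Nanog. All 4 arrays with Nanog lay above all 4 without. With Nanog both colon arrays lay below both intestine arrays, and without Nanog the tissues overlapped. The log2 difference was 1.42 ± 0.23 in intestine, 0.99 ± 0.23 in colon and 1.20 ± 0.17 on average (SE, n = 2). The gene is dim: its deposited intensity was 210.2 and 132.7 in intestine with Nanog, against 133.9 and 127.1 in intestine without, so replicate 2 of intestine with Nanog lay between the arrays without Nanog before normalization. A second Nr5a2 probe was above background on 2 arrays only, replicate 1 of each tissue with Nanog, and its last probe on none.

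Fgf15, the hormone of the ileum, was above background on 1 array, replicate 1 of intestine with Nanog. Its deposited intensity there was 541, against 82.3 on replicate 2 of that group and 109.1 and 91.2 in intestine without Nanog. It did not pass the detection requirement and was not tested. No fold is given for intestine, because replicate 2 with Nanog was not above background. Its normalized value, 4.61, lay below the 4.86 of replicate 1 of intestine without Nanog, so the groups overlapped.

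Cyp27a1, the mitochondrial sterol hydroxylase of the acidic synthesis route, differed most among the called members. It had 11.52 and 11.12 in intestine with Nanog, against 9.87 and 8.34 in intestine without Nanog. In colon it had 10.94 and 10.77 with Nanog, against 8.59 and 8.52 without Nanog. The groups did not overlap in either tissue, and the arrays without Nanog in intestine were farther apart than any other pair. The log2 difference was 2.22 ± 0.47 in intestine, 2.30 ± 0.47 in colon and 2.26 ± 0.33 on average (SE, n = 2).

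The deposited intensities of Cyp27a1 were 2947 and 1454 in intestine with Nanog, against 1303 and 435 without, and 2247 and 1767 in colon with Nanog, against 502 and 443 without. The groups were therefore apart before normalization too. Its other probes, above background on all 8 arrays, gave 2.44 and 2.48 in intestine and 2.47 and 2.39 in colon. Cyp27a1 is also a macrophage gene in other settings, and the mean of 5 tested macrophage genes was 8.14 and 7.90 in intestine with Nanog, against 6.71 and 7.72 in intestine without Nanog, and 8.48 and 9.51 in colon with Nanog, against 8.57 and 8.99 in colon without Nanog. Their part in the Cyp27a1 values was not tested.

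**Figure D2:**
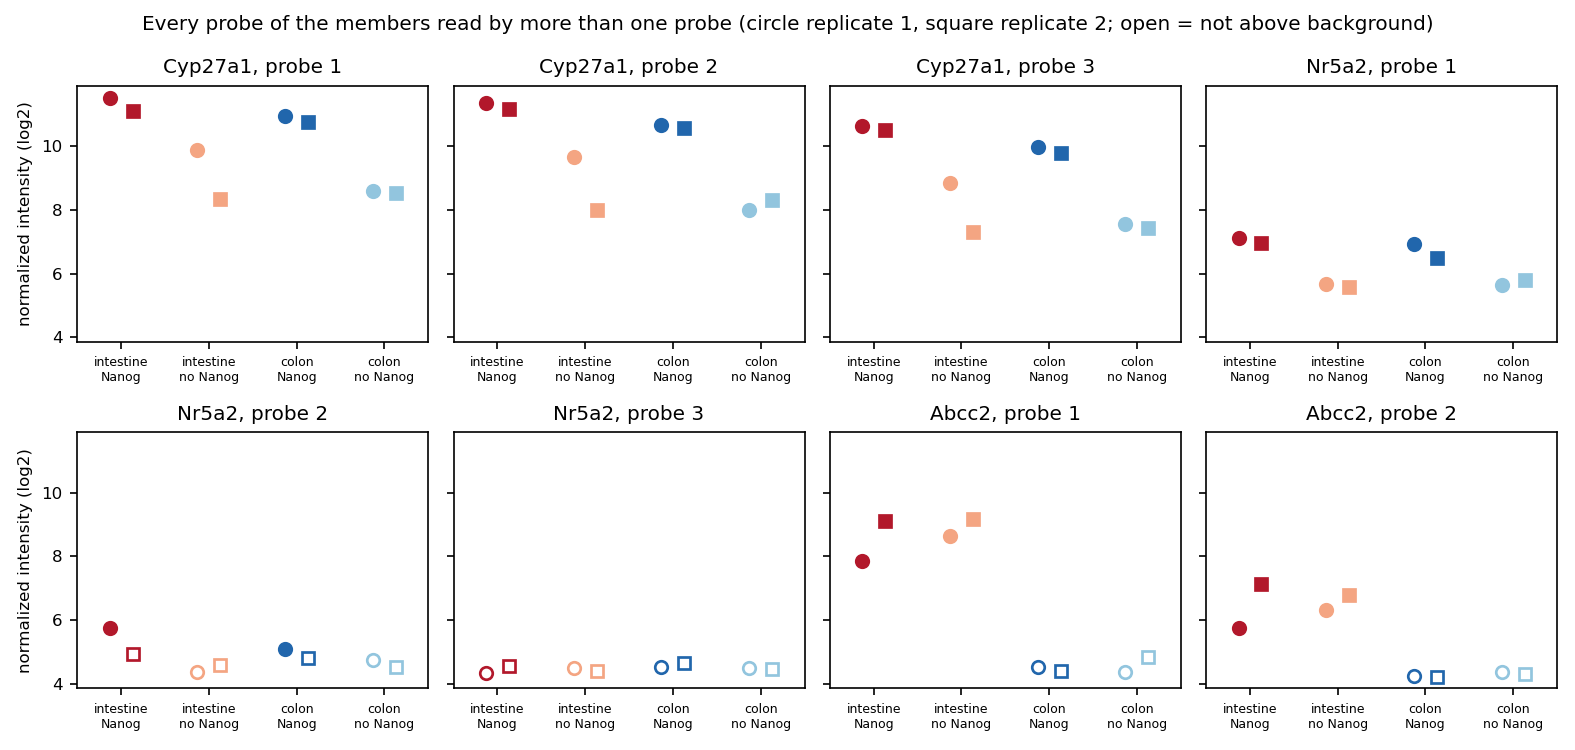
Normalized log2 intensity (y axis) of every probe of Cyp27a1, Nr5a2 and Abcc2 in the 4 groups (x axis), with circles for replicate 1, squares for replicate 2 and open symbols for arrays on which the probe was not above background. The 3 Cyp27a1 probes show the same order of groups, while only 1 Nr5a2 probe is above background on all 8 arrays.

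Slc51b, a subunit of the basal bile acid exporter, had 11.72 and 10.54 in intestine with Nanog, against 9.81 and 9.11 in intestine without Nanog. In colon it had 8.02 and 7.77 with Nanog, against 6.25 and 7.27 without Nanog. The groups did not overlap in either tissue. The log2 difference was 1.67 ± 0.50 in intestine, 1.14 ± 0.50 in colon and 1.41 ± 0.35 on average (SE, n = 2), and none of the 3 was called. In intestine the deposited intensities overlapped, at 3325 and 940 with Nanog, against 1248 and 693 without.

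Slc51a, the other subunit, had 13.20 and 11.24 in intestine with Nanog, against 12.84 and 11.76 in intestine without Nanog. The arrays of each group lay on both sides of the other's mean, and the log2 difference was -0.08 ± 0.66 (SE, n = 2). In both intestine groups replicate 1 was the brighter for both subunits, as it was for the mean of 4 tested enterocyte genes, which was 12.89 and 11.40 with Nanog, against 13.60 and 11.09 without Nanog. In bulk tissue, fewer cells of a type and less RNA per cell cannot be told apart.

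Fabp6 had the widest gap between replicates of any member. It had 13.43 on replicate 1 and 4.94, not above background, on replicate 2 of intestine with Nanog, against 7.70 on replicate 1 and 5.01, not above background, on replicate 2 of intestine without Nanog. The deposited intensities were 10566 and 86.2 with Nanog, against 332 and 110.0 without. In colon it had 5.89 and 6.09 with Nanog, against 5.58 and 5.84 without Nanog, all 4 above background. The log2 difference was 2.83 ± 2.38 in intestine and 0.28 ± 2.38 in colon (SE, n = 2), and without replicate 1 of intestine with Nanog the intestine value was -1.41. The fit shares its spread over the 4 groups, so the SE in colon also carries the spread of the intestine arrays.

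The same arrays differed in other genes of the distal small intestine. The mean of Amn and Mep1a, the tested markers of distal enterocytes, was 10.56 and 8.21 in intestine with Nanog, against 11.48 and 7.50 in intestine without Nanog, so replicate 1 was higher in each group. This order was not particular to distal markers. The mean of 4 tested enterocyte genes was 12.89 and 11.40 with Nanog, against 13.60 and 11.09 without Nanog. Mep1a was also brighter in colon without Nanog (7.38 and 8.42) than on replicate 2 of intestine with (6.14) or without Nanog (5.41). The mean of 7 tested proximal markers was 11.09 and 11.75 with Nanog, against 11.61 and 11.19 without Nanog. Fgf15 was detected on the array with the brightest Fabp6, while Slc10a2, the ileal uptake transporter, was not above background on any of the 8 arrays (4.18 to 4.45). The part of the sampled segment, or of the share of enterocytes, in the Fabp6 and Fgf15 values was not tested.

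**Figure D3:**
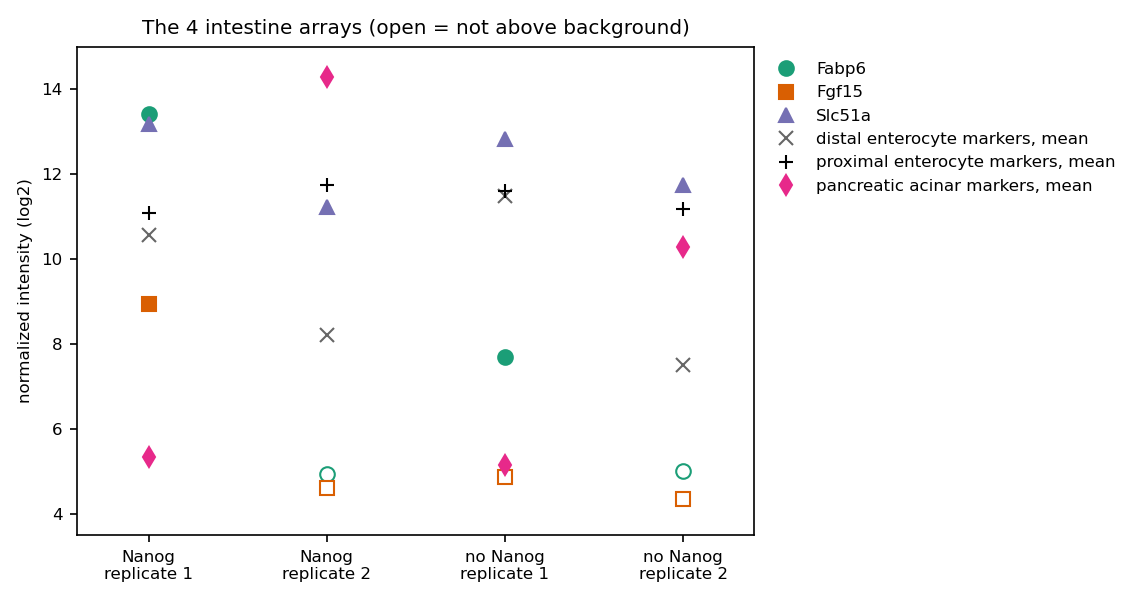
Normalized log2 intensity (y axis) on the 4 intestine arrays (x axis) of Fabp6, Fgf15 and Slc51a, with the means of the distal enterocyte, proximal enterocyte and pancreatic acinar markers. Open symbols mark genes not above background on that array. Fabp6 runs from 4.94 to 13.43 with Nanog and from 5.01 to 7.70 without Nanog, and the pancreatic mean is 14.30 on replicate 2 with Nanog.

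Abcc2, an apical exporter of bile acid and bilirubin conjugates, had 7.84 and 9.11 in intestine with Nanog, against 8.63 and 9.18 in intestine without Nanog. The groups overlapped, and the log2 difference was -0.43 ± 0.43 (SE, n = 2). Neither Abcc2 probe was above background on any colon array.

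**Figure D4:**
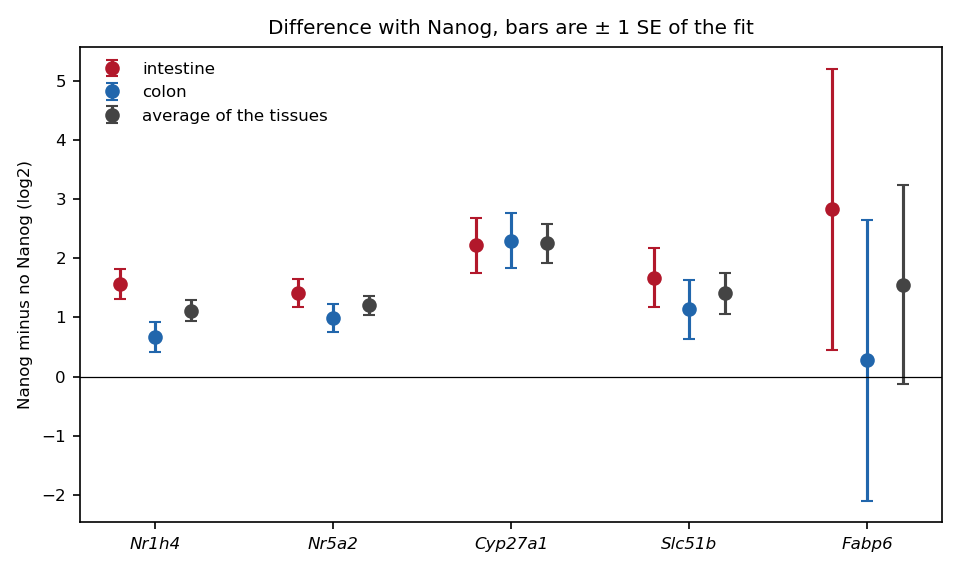
Log2 difference with Nanog minus without Nanog (y axis) for 5 of the 7 tested members (x axis) in intestine, in colon and averaged over the tissues, with bars of 1 SE of the fit (n = 2 arrays a group). Slc51a and Abcc2, whose fitted differences were below 0 in both tissues, are not plotted. Cyp27a1 lies at 2.22 in intestine and 2.30 in colon, and the Fabp6 bars are 2.38 in each tissue and 1.68 on average.

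Whether Nanog's difference itself varied between the tissues was tested as an interaction. None of the 8607 genes was called in limma (361 at an unadjusted p under 0.05, 1 of them a member). Without replicate 1 of intestine without Nanog 20 genes were called, and 3 with no background correction. This does not show that the differences were alike.

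Between the tissues, 3 members were called lower in colon with Nanog and 3 without Nanog: the exporter pair Slc51a and Slc51b, and Abcc2. Slc51a and Abcc2 passed the detection requirement only through intestine, where they are bright, so their lower colon values follow from the filter. With detection required on all 8 arrays, 4 members were tested, Slc51a and Abcc2 not among them, and Slc51b was called. With Nanog 6.65% of all genes were called, 3.46% as lower in colon, and without Nanog 5.5% were, 3.06% as lower. Slc51a was not above background on either colon array with Nanog (4.65 and 4.32) and on 1 of 2 without (4.39 and 5.11). Its log2 difference, colon minus intestine, was -7.73 ± 0.66 with Nanog and -7.55 ± 0.66 without (SE, n = 2). With Nanog this puts intestine at least 144.6-fold above colon.

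Slc51b, by contrast, was above background on all colon arrays, and its difference was -3.23 ± 0.50 with Nanog and -2.70 ± 0.50 without (SE, n = 2). Abcc2 was at least 10.8-fold higher in intestine than in colon with Nanog and at least 14.9-fold without. Its second, dimmer probe gave at least 2.65-fold and 2.97-fold. Nr1h4, Nr5a2 and Cyp27a1 were not called between the tissues. Fabp6 was not called either, at -3.19 with Nanog and -0.64 without, and its sign turned with Nanog to 1.05 without replicate 1 of intestine with Nanog.

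**Figure D5:**
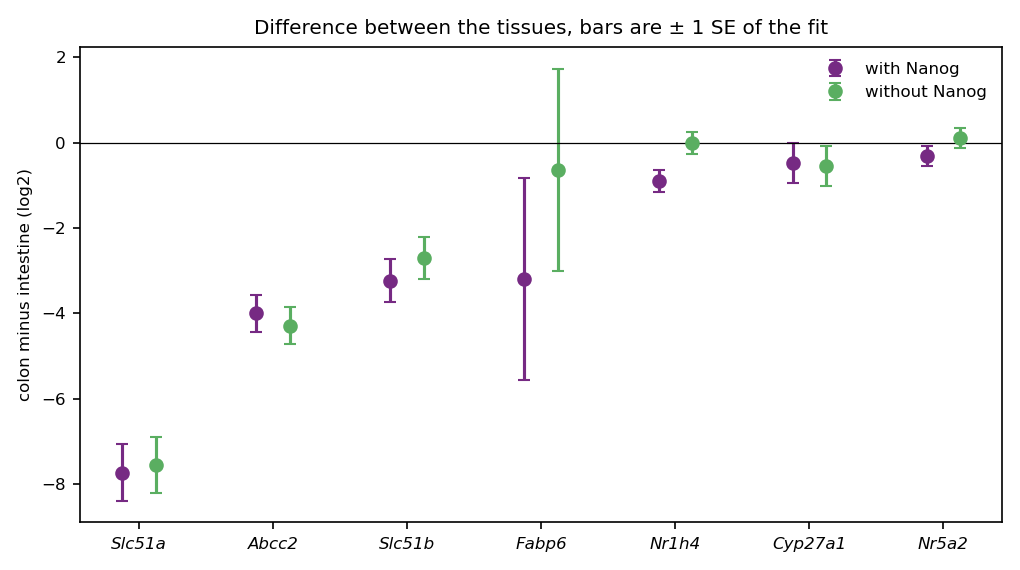
Log2 difference colon minus intestine (y axis) for the 7 tested members (x axis), with Nanog on the left and without Nanog on the right of each pair, and bars of 1 SE of the fit (n = 2 arrays a group). Slc51a and Abcc2 are not above background on the colon arrays with Nanog, and Slc51a lies at -7.73 with Nanog and -7.55 without.

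Beside the 10 members, 37 other genes of bile acid synthesis, transport and regulation were listed, of which 35 were on the array and 19 were tested. With Nanog, 0 of 19 were called in intestine, in colon or on average in limma. An unadjusted p under 0.05 was found for 4, 2 and 5, beside 748, 1074 and 1424 of all 8607 genes. The median log2 differences of the 19 were 0.10, -0.03 and 0.02. The smallest average p-values belonged to Hnf4a, Abcc3 and Klb. Hnf4a, a regulator of enterocyte genes, had 10.37 and 10.26 in colon with Nanog, against 11.48 and 11.71 in colon without Nanog, and its average difference was -0.91 ± 0.22 (limma adjusted p = 0.111). Abcc3, a basal exporter of conjugates, had an average difference of -1.18 ± 0.31 (limma adjusted p = 0.137). Klb, the co-receptor for Fgf15, was not above background in intestine and had a colon difference of -0.97 (limma adjusted p = 0.270). In intestine, Ppara, the fatty acid receptor, was not above background without Nanog and was at least 1.40-fold higher with Nanog (limma adjusted p = 0.327). Ppara passed the detection requirement only through intestine with Nanog, so its higher value in that group follows from the filter. The xenobiotic receptor Nr1i2 differed by 0.75 in intestine (limma adjusted p = 0.390).

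Between the tissues, 8 of the 19 were called lower in colon with Nanog, where 3.46% of all genes were, and 6 without Nanog, where 3.06% were. Klb was called higher in colon without Nanog, where 210 of all 8607 genes were. The difference was below 0 for 14 of the 19 with Nanog and 13 without, and for 3634 and 3567 of all 8607 genes. Klb passed the detection requirement only through colon, Nr1i3 and Gata4 only through intestine, and Ppara only through intestine with Nanog. The directions of their tissue differences therefore follow from the filter. Abcg5 and Abcg8 form the sterol exporter. Abcg8 had a difference of -5.86 with Nanog (limma adjusted p = 0.00135) and -4.86 without (limma adjusted p = 0.00293), and Abcg5 of -4.75 with (limma adjusted p = 0.00538) and -3.25 without (limma adjusted p = 0.0250). Of the peroxisomal side-chain enzymes, Scp2 differed by -1.85 with Nanog (limma adjusted p = 0.00537) and -1.94 without (limma adjusted p = 0.00435), Hsd17b4 was called lower in colon with Nanog (limma adjusted p = 0.0310) and, at -1.19, without (limma adjusted p = 0.0185), and Acox2 differed by -3.06 with Nanog (limma adjusted p = 0.0341). Nr1i3, a xenobiotic receptor, was not above background in colon and was at least 5.28-fold higher in intestine with Nanog and at least 7.72-fold without. Nr1i2 was called lower in colon with Nanog, at -1.37, as was Ppara, with intestine at least 1.55-fold higher. Gata4, a regulator of proximal small intestine, was called lower without Nanog, with intestine at least 1.92-fold higher, and Klb was at least 2.32-fold higher in colon (limma adjusted p = 0.0236). Without replicate 2 of both Nanog groups, 0 of the 19 were called between the tissues with Nanog, where that comparison had 1 array a group.

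For the 3 members with the widest range over the arrays, the tested genes with the most similar profile were found by Pearson's r over the 8 arrays, which differ by tissue, Nanog and array. For Slc51a, whose range was 8.87, they were Mogat2 (r = 0.995), Sis, Itln1, Pdzk1 and Defa20. For Fabp6, whose range of 8.48 comes from replicate 1 of intestine with Nanog, they were Cfl2 (r = 0.961), Slc52a3, Acp2, Nfkbia and Sgsh (r = 0.890). For Slc51b they were Shroom1 (r = 0.973), Flvcr2, Gm1123, Pex11a and Gramd1b (r = 0.961).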

How the data were processed

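The 8 Illumina bead arrays hold RNA of mouse intestine and colon cells, with Nanog overexpression or without, in 4 groups of 2 taken from the labels. The deposited table gives a linear intensity and a detection p-value for each of 25697 probes and array. BeadStudio 3.2, RMA and lumi are named in the submitters' processing notes. The authors' deposited value table holds log2 values, which were used as an alternative. Its 8 columns share the same quantiles.

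Starting from the intensities, limma 3.58.1 (R 4.3.3) removed background by normexp with an offset of 16, inferring the negative controls from detection p-values, and the arrays were quantile-normalized on the log2 scale. Detection at p under 0.01 was required on both replicates of some group, which kept 12064 probes. The brightest probe stood for a gene (8607 genes). Probes were named through the platform annotation and updated by Entrez identifier to RefSeq GRCm38.p6, and 1719 probes had no gene. A mean per group was fitted over all 8 arrays with lmFit and eBayes (4 residual and 3.07 prior degrees of freedom), and p-values were adjusted over all genes by Benjamini-Hochberg. "At least" folds set the bright group against the dimmest detected probes of the other. The fit was tested on simulated data.

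The members and the gene lists were chosen with earlier results of these data known. The text names all 10 members, other pathway genes called in any comparison, and the 3 with the smallest p in each Nanog comparison. Alternatives changed the background correction, offset, scaling, filter, probe rule, a replicate block, the arrays used and, in place of these values, the authors' normalized ones. The labels do not say that replicate numbers mark shared animals. Same-numbered arrays deviated together at r = 0.468 between the intestine groups and r = 0.144 between the colon groups. Between intestine and colon the values were 0.429 with Nanog and 0.308 without.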

Additional observations from a re-analysis of the deposited data

Results flagged for a closer look

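Nr1i2, the xenobiotic receptor, had values with Nanog above those without it in intestine and below them in colon, with no overlap between groups in either tissue. It had 9.61 and 9.57 in intestine with Nanog, against 8.91 and 8.79 in intestine without Nanog, and 8.38 and 8.07 in colon with Nanog, against 8.82 and 8.49 in colon without Nanog. The Nanog effect in colon minus that in intestine was -1.18 on the log2 scale, and no gene passed the limma test of that difference after Benjamini-Hochberg adjustment. The intestine difference of Nr1i2 was 0.75, and 0.23 under median scaling. How many of all genes had such opposite directions was not counted. Of all genes tested, 17% lacked overlap upward in intestine.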

How the results depend on the processing

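Over 55 gene results and 963 alternative values, 829 kept direction and side of the threshold, 116 were no longer called, 6 became called and 12 turned sign. The 829 include results that were not called to begin with and stayed so. For the average Nanog difference, median scaling gave 0 called members, where 43 of all 8607 genes were called, against 103 with quantile normalization. The authors' normalized values gave 1 (Nr5a2), where 76 of all genes were called. With no detection filter there was 1 (Nr5a2), where 48 of 16593 genes were called. Leaving out 1 array in turn gave 0 to 2 on average, 0 to 1 in intestine (Cyp27a1 without replicate 1 of intestine without Nanog), 0 to 1 in colon (Cyp27a1 without either array of intestine without Nanog) and 2 to 4 between the tissues with or without Nanog. Leaving 1 array out also changed how many of all genes were called, so a call gained or lost there is not read as a result about the gene. Colon gave 1, Cyp27a1, when only the 4 colon arrays were fitted, where 128 of all genes were called, against 19 with all 8 arrays. Requiring detection on all 8 arrays left 4 members tested, Slc51a and Abcc2 not among them. Of these 4, Slc51b was called between the tissues with and without Nanog, where 339 and 287 of all 6648 genes were called. For the other pathway genes, 1 array left out gave 0 to 1 in intestine and on average (Acox2), 2 to 8 between the tissues with Nanog and 3 to 8 without. Between the tissues with Nanog the count was 4 under median scaling, where 479 of all genes were called. Without Nanog it was 4 with detection on all 8 arrays, where 12 of these genes were tested and 287 of all 6648 called. It was 3 with only the 4 arrays compared, where 189 of all genes were called. The interaction gave 0 members and 0 other pathway genes under every alternative run. Over all genes it gave 3 with no background correction, 3 with an offset of 50, 20 without replicate 1 of intestine without Nanog and 0 otherwise. Median scaling moved the median of all genes by -0.38 in intestine and -0.17 on average, and gave average differences of 0.89 for Nr1h4, 1.07 for Nr5a2, 2.05 for Cyp27a1 and 1.19 for Slc51b. The cause of these moves was not tested.

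Some differences turned sign when 1 array was left out. For Fabp6 the values ran from -1.41 to 7.07 in intestine, from -0.57 to 3.67 on average and from -7.44 to 1.05 between the tissues with Nanog, where the sign turned without replicate 1 of intestine with Nanog. They ran from -1.98 to 0.70 between the tissues without Nanog. In that comparison Cyp27a1 ran from -1.31 to 0.22 and Nr1h4 from -0.092 to 0.083, and Nr1h4 gave 0.0077 without replicate 1 of colon without Nanog. In intestine, Slc51a ran from -1.06 to 0.90, with 0.46 without replicate 1 of intestine without Nanog and 0.90 also without replicate 2 of both Nanog groups, and Abcc2 ran from -1.06 to 0.20. Nr5a2 gave 0.083 between the tissues with Nanog under median scaling. With the replicate number as a block, the counts of called members were 0 in intestine, 0 in colon, 3 on average, 3 between the tissues with and 3 without Nanog, and the average call count over all genes was 174 against 103 without the block. Depth of signal limits Nr0b2, Slc10a2 and Fgf15, which give no level on most arrays.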

Other observations

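Among the other bile acid pathway genes that were not tested, 12 were not above background on any array, among them Cyp7a1, which catalyses the first step of the classic synthesis route, and the hepatic transporters Slc10a1 and Abcb11. Cyp8b1 and Slc27a5, a hydroxylase and a bile acid coenzyme A ligase of the liver, were above background only on replicate 2 of intestine with Nanog. Baat, the conjugating enzyme, was above background only on replicate 1 of intestine without Nanog. Abcb4, a phospholipid exporter, was above background on 2 arrays, both replicate 2, of intestine with Nanog and of colon without Nanog.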
